A study of Mus musculus with 9 samples.

Results

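Macrophages live by growth factors and find their place by chemokines, and 8 genes of these circuits were followed here in mouse thyroid: Csf1, Il34, Csf1r, Ccl2, Ccl7, Ccr2, Cx3cl1 and Cx3cr1. They were taken by name, not by their values, and all 8 were found among the 52636 genes of the deposited count table. Single cells came from thyroids of male C57BL/6 mice, 10 to 12 or 10 to 14 weeks old (the labels give both), taken 7 days after a single intraperitoneal injection. Control mice received an antibody against ragweed at 40 mg/kg (RW), the ligand blockade was anti-Jag1 with anti-Jag2 at 20 mg/kg each (aJ1aJ2), and the receptor blockade was anti-Notch1 at 5 mg/kg with anti-Notch2 at 10 mg/kg (aN1aN2). Every group held 3 samples, and each sample pooled the thyroids of 6 mice, so single animals cannot be seen. The antibodies were given to the whole animal, so effects on the thyroid and effects elsewhere cannot be told apart.

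CSF1 and IL-34 are the ligands of one receptor tyrosine kinase, CSF1R, which macrophages need to survive and multiply. CCL2 and CCL7 are chemokines that bind CCR2 and draw monocytes out of the blood. CX3CL1 (fractalkine) is made as a membrane-bound chemokine with a stalk that proteases cut, and its receptor CX3CR1 sits on monocytes and many tissue macrophages. Notch signalling ends at the DNA-binding protein RBPJ, whose core motif is TGGGAA.

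The table held 10186 cells with at least 500 unique molecular identifiers (UMIs, one per captured mRNA molecule), from 583 to 1805 cells and 3013324 to 11880793 UMIs a sample. The authors gave each cell 1 of 16 labels. M held 378 cells in all, and the 8 macrophage markers summed to between 9096 and 17931 CPM in its 9 samples. CPM is the UMIs of a gene for every 1000000 UMIs of a label or sample. All 8 of these markers were detected in every sample of M except aN1aN2 1 and aN1aN2 2, where 7 were. In M the T and NK markers summed to 0 to 82.9 CPM, the neutrophil markers to 0 to 50.3, the thymocyte markers to 0 to 305 and the B cell markers to 6.53 to 143 in RW and aJ1aJ2 and 0 to 1288 in aN1aN2. The 6 dendritic cell markers summed to 97.9 to 655 CPM in M of RW, 194 to 669 in aJ1aJ2 and 0 to 557 in aN1aN2. In M of RW 3, however, the 6 resident macrophage markers had 4 UMIs and the 6 monocyte markers 1 UMI, where RW 1 and RW 2 had 186 and 555, and 259 and 307. EC1 carried all 6 endothelial markers (12580 to 17606 CPM summed), F all 6 fibroblast markers (28897 to 45194 CPM) and Th1 all 6 thyrocyte markers. SM had 11339 CPM of Acta2 and 3387 CPM of Rgs5, genes of vascular mural cells. Th2 had 9224 CPM of S100a8, a neutrophil gene, and is called by its label alone. Sample numbers in the titles fell into 3 ranges: RW 3 and aJ1aJ2 1 in the first, RW 1, RW 2, aJ1aJ2 3 and aJ1aJ2 4 in the second, and all aN1aN2 samples in the last. Receptor blockade and that last range cannot be told apart.

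Cx3cl1 and Cx3cr1 are a ligand and its receptor that both differed between groups, so the 250 bases upstream of both genes' start sites are shown (RefSeq, GRCm38.p6, 5′ to 3′ on each gene's strand), with the RBPJ core, read on the opposite strand, in capitals. The Cx3cl1 stretch is chr8:94771930-94772179 on the plus strand and the Cx3cr1 stretch chr9:120068297-120068546 on the minus strand.
Cx3cl1: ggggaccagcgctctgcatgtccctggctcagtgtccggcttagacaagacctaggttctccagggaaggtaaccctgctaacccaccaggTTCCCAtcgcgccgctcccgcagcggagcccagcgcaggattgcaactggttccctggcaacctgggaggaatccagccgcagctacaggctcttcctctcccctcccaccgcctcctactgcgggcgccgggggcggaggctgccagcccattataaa
Cx3cr1: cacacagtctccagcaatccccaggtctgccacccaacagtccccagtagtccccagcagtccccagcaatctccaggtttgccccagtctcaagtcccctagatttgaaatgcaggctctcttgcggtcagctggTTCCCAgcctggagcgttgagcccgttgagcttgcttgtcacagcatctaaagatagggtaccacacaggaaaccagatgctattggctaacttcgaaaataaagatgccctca
The capitals start 159 bases before the Cx3cl1 start and 114 bases before that of Cx3cr1. Promoter entries were found for 4 of the 8 genes, the other two being Csf1 and Ccr2. A window of 300 bases, from 250 before to 50 after the start, was searched on both strands for TGGGAA, the AP-1 motif TGANTCA, the PU.1 motif GAGGAAGT and the NF-kB consensus. Besides the pair of RBPJ cores, 1 match was found, an NF-kB consensus 154 bases before the Csf1 start. These letters are common: 25.6% of 32851 promoters hold TGGGAA, 8.46% the NF-kB consensus, 7.81% the AP-1 motif and 3.20% the PU.1 motif. A match is a run of letters, and binding was not measured. In the genome (GRCm38), Ccl2 (chr11:82035571-82037453) and Ccl7 (chr11:82045712-82047525) are neighbours on the plus strand with 8258 bases between them. Csf1 lies at chr3:107741048-107760469 on the minus strand, Il34 at chr8:110741829-110805924 on the minus strand, and Ccr2 at chr9:124101950-124113557 on the plus strand.

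Csf1, Il34 and Cx3cl1 were highest in other labels than the receptors, while Ccl2 and Ccl7 were also read in M, where Ccr2 was highest. Csf1 was highest in F, at 149 CPM over all samples pooled (95% counting interval 136 to 163), with a UMI in 43.3% of F cells. EC3 followed at 57.4 CPM, then EC4 at 33.9 and EC1 at 32.6, whose intervals overlap. F held 37.2% of all Csf1 UMIs and EC1 24.6%. In M no Csf1 UMI was found. Csf1 in F ranged from 36.2 to 183 CPM over the 9 samples, a spread that reached down into the range of EC3 (38.7 to 106).

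Il34, the other CSF1R ligand, had a separate set of sources. Its level was highest in SM, at 133 CPM (109 to 162), with a UMI in 29.0% of cells, and then in S, at 44.1 CPM (29.5 to 63.4). Th1 had 22.8 CPM and Th3 18.5, F 17.3 and EC2 17.2, and these 4 do not differ beyond their intervals. Because thyrocytes are deep and many, Th1 nonetheless gave 62.9% of all Il34 UMIs. M had no Il34 UMI either, so neither CSF1R ligand was detected in the label that carried the receptor.

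Csf1r was found mainly in M, at 714 CPM (670 to 760), with 86.9% of its UMIs there. Th2 had 45.6 CPM from 8 UMIs, EC1 4.92 and Th1 3.63 CPM. Of the 34 Th1 cells with a Csf1r UMI, 32 also held UMIs of C1q, a macrophage product, against 6.78% of the other Th1 cells. These 34 cells had a median of 41524 UMIs, compared with 12553 in Th1, and no doublet caller was run. In EC1, 13 of the 16 Csf1r cells held C1q.

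Cx3cl1 was highest in the endothelial labels EC4 and EC1. EC4 stood at 102 CPM (84.9 to 121) and EC1 at 89.6 (83.8 to 95.7), and these do not differ beyond their intervals. EC3 had 33.1, Th1 22.9 and F 21.2 CPM. EC1 gave 50.2% of all Cx3cl1 UMIs and Th1 30.2%. Its receptor Cx3cr1 was at 348 CPM in M (317 to 380), 75.5% of its UMIs, followed by 17.1 in Th2 from 3 UMIs and 5.12 in Th1. Of 28 Th1 cells with a Cx3cr1 UMI, 25 held C1q.

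Ccl2 and Ccl7 were rare, with 96 and 102 UMIs in the whole table. F held 72 Ccl7 UMIs (21.8 CPM, 70.6% of the total) in 23 cells and M 23 UMIs (16.6 CPM) in 7 cells. Ccl2 was spread more widely: F had 37 UMIs, M 22, S 16, and EC3 and T1 10 each. These counts do not rank the labels by level, since F held 3299384 UMIs of all genes, M 1389371 and S 657194. All 16 Ccl2 UMIs of S were in RW 1, and the 10 in T1 came from 1 cell. A single cell held up to 13 Ccl2 and up to 16 Ccl7 UMIs, and 8 cells held both, 4 of them F and 3 M. A few cells therefore set the levels of both chemokines. Ccr2 was at 451 CPM in M (416 to 487), 154 in Th2 and 124 in T1 (109 to 141). M gave 66.6% of its UMIs and T1 26.9%. Of the 87 T1 cells with Ccr2, 4 held C1q.

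**Figure D1:**
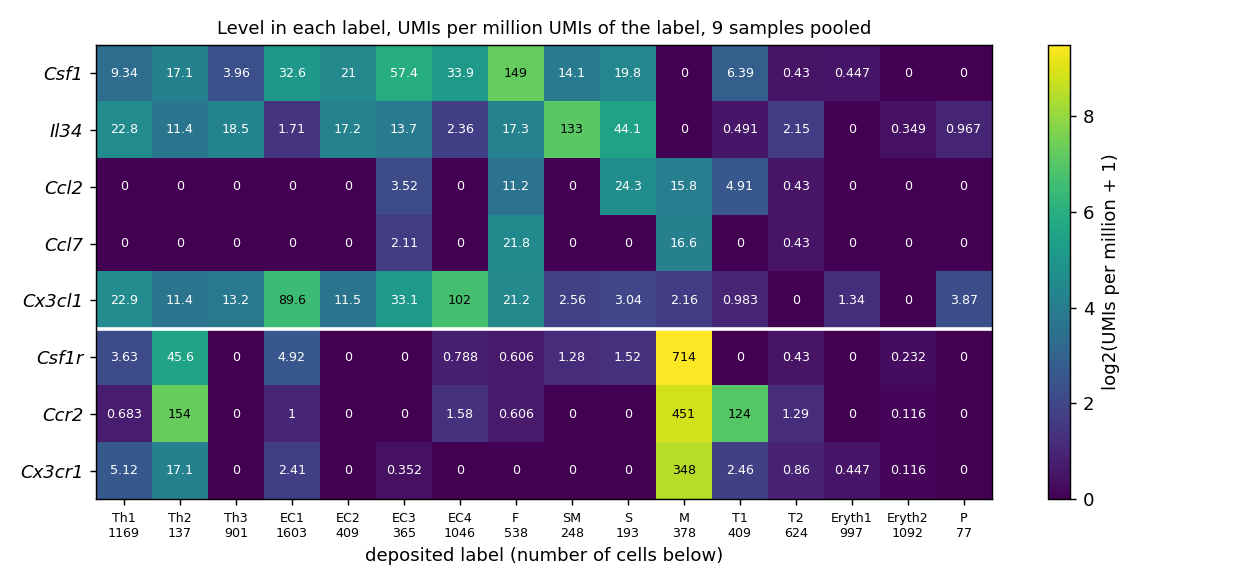
Level of each of the 8 genes (CPM, colour scale of log2(CPM + 1)) in each deposited cell label, over all samples pooled. The receptors Csf1r, Ccr2 and Cx3cr1 peak in M (714, 451 and 348 CPM), while Csf1 peaks in F (149 CPM), Il34 in SM (133 CPM) and Cx3cl1 in EC4 (102 CPM) and EC1 (89.6 CPM).

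Patterns over labels were compared as Pearson's r of log2(CPM + 10) across 13 labels in the pooled RW samples, over 15385 genes; these are descriptions, and labels share libraries and depth. Csf1r was most like Mpeg1 (r = 0.998), Wfdc17 (0.997) and Ms4a14 (0.996). Cx3cr1 was most like Cybb (0.994), C3ar1 (0.993) and Spi1 (0.993), and Ccr2 like Cd200r1 (0.999). Mpeg1 encodes a pore-forming protein of phagocytes and Cybb a subunit of the phagocyte oxidase. Csf1 was most like Fstl1 (0.961) and Spry2 (0.960), Il34 like Col12a1 (0.964), and Cx3cl1 like Meis2 (0.970). SM, P and Th2 had fewer than the minimum of 50 RW cells and were left out, so the pattern of Il34 omits SM, its highest label. The values for Ccl2 (Pvt1, 0.954) and Ccl7 (Zfp385a, 0.990) rest on few UMIs.

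Cells labelled M were fewer after receptor blockade. They made up 4.25%, 5.85% and 5.52% of cells in RW 1, 2 and 3, and 6.17%, 3.99% and 3.84% in aJ1aJ2 1, 3 and 4. In aN1aN2 1, 2 and 3 they made up 0.860%, 0.339% and 1.46%, which is 9, 3 and 10 cells. The aN1aN2 samples lay below all others and the RW and aJ1aJ2 samples overlapped. The difference between means was -4.32 percentage points against RW and -3.78 against aJ1aJ2, each with an exact two-sided permutation p of 0.1, the smallest that 3 against 3 samples allow. For aJ1aJ2 against RW it was -0.536 (p = 0.7, exact permutation test). In sums over whole samples, a gene of M can therefore fall because there are fewer M cells or because each holds less RNA of it, and sums alone cannot tell these apart.

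Whole-sample sums of the receptors followed this in part. Cx3cr1 was at 13.8, 10.2 and 12.2 CPM in RW 1, 2 and 3 and at 15.8, 12.0 and 11.5 in aJ1aJ2 1, 3 and 4. The 3 aN1aN2 samples had 1, 0 and 2 UMIs, at most 0.66 CPM. Receptor-blocked samples lay far below all others, with 3 UMIs against 339 in RW, 47.6-fold lower per UMI sequenced (95% counting interval 16.1 to 232). The fall passed edgeR's quasi-likelihood test (log2 fold change -5.20, SE 0.51, adjusted p = 0.000365), where 16.6% of all 14382 genes tested were called. The fitted log2 fold depends on the prior count at so few UMIs. Csf1r was at 18.1, 29.6 and 15.8 CPM in RW and 7.64, 1.66 and 16.3 in aN1aN2, and Ccr2 at 8.57, 32.9 and 5.61 in RW and 5.17, 3.32 and 6.64 in aN1aN2. The RW and aN1aN2 samples overlapped for both, with edgeR log2 differences of -1.09 (SE 0.59, adjusted p = 0.231) and -1.43 (SE 0.69, adjusted p = 0.182). In aJ1aJ2 1, 3 and 4, Csf1r was at 27.0, 18.2 and 20.0 CPM and Ccr2 at 15.5, 26.7 and 13.9. Each of these lay above every aN1aN2 sample, but neither difference passed edgeR's test: aN1aN2 against aJ1aJ2 was -1.06 for Csf1r (SE 0.60, adjusted p = 0.275) and -1.60 for Ccr2 (SE 0.69, adjusted p = 0.166), where 9.94% of all genes were called. With only these groups in the fit, Ccr2 was called (log2 -1.63, edgeR adjusted p = 0.0159). The macrophage markers summed to 329 to 521 CPM of whole samples in RW, 313 to 552 in aJ1aJ2 and 40.8 to 264 in aN1aN2.

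Among the ligands, whole-sample Csf1 was at 17.0, 24.7 and 20.9 CPM in RW, 27.7, 22.4 and 31.4 in aJ1aJ2, and 15.3, 9.02 and 8.96 in aN1aN2. It was lower after receptor than after ligand blockade (edgeR log2 -0.98, SE 0.25, adjusted p = 0.0406, where 9.94% of genes were called), a call that ended without any one of aJ1aJ2 1 (adjusted p = 0.0851), aJ1aJ2 4 (0.111), aN1aN2 2 (0.145) or aN1aN2 3 (0.117). Il34 was at 12.1, 6.40 and 16.1 CPM in RW and 19.8, 15.9 and 16.9 in aN1aN2, the only overlap being RW 3. It rose against RW with an adjusted p of 0.0490 (edgeR, log2 0.89, SE 0.27), and in 10 of 12 alternatives that call was lost, with adjusted p up to 0.151. Ccl2 had 35, 23 and 2 UMIs in RW, 0, 27 and 8 in aJ1aJ2 and 0, 1 and 0 in aN1aN2. The 1 UMI of the receptor-blocked samples against 60 in RW is 25.3-fold lower (4.36 to 1010, counting error only), yet edgeR's adjusted p was 0.115. Ccl7, which the filter on low counts removed, had 10, 33 and 2 UMIs in RW, 5, 16 and 32 in aJ1aJ2 and 0, 3 and 1 in aN1aN2.

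**Figure D2:**
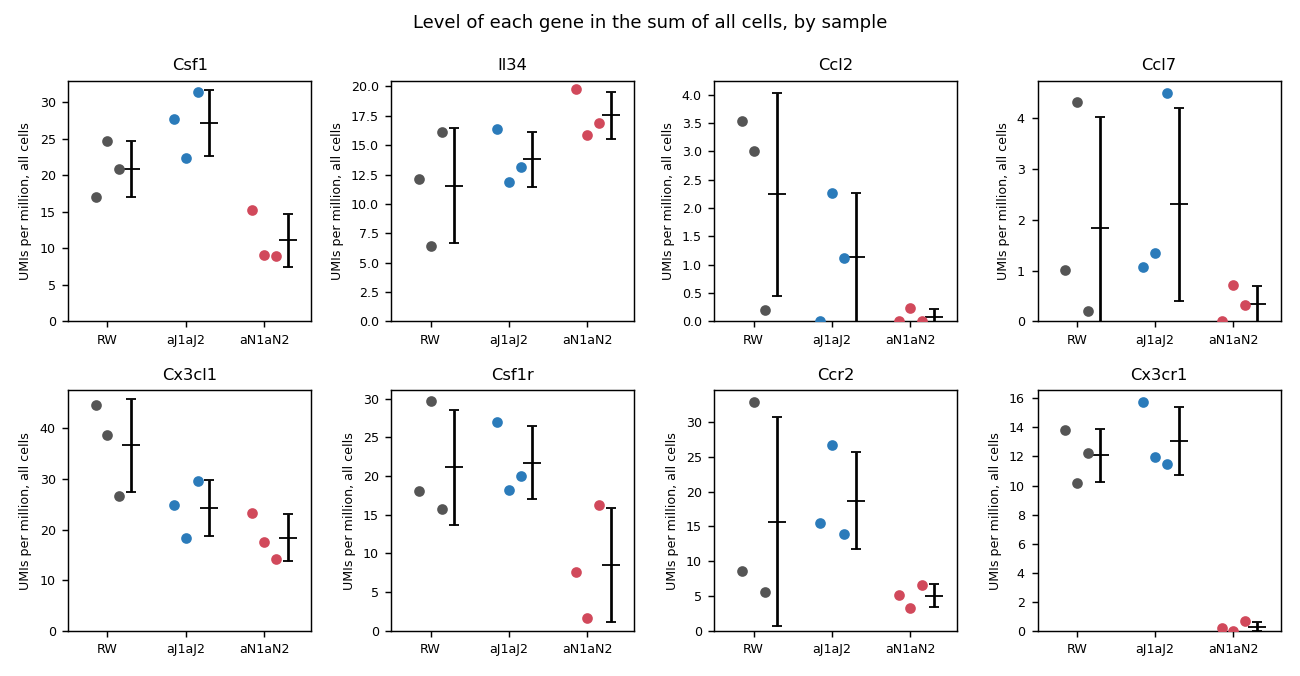
Whole-sample level (CPM) of each of the 8 genes in the 9 samples, by antibody group; points are samples, bars the mean and SD of 3 (drawn down to 0 at most). Cx3cr1 in aN1aN2 is at or near 0, apart from RW and aJ1aJ2, while Csf1r and Ccr2 overlap between RW and aN1aN2.

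Within M, Cx3cr1 was near 0 after receptor blockade, and a difference between the receptors in their response was not tested. Cx3cr1 had 100, 65 and 64 UMIs in M of RW 1, 2 and 3, 52, 124 and 76 in aJ1aJ2 1, 3 and 4, and 1, 0 and 1 in aN1aN2 1, 2 and 3. As levels these were 653, 189 and 449 CPM, then 360, 367 and 444, and then 36.4, 0 and 15.9. All 3 receptor-blocked samples lay below every other sample, 17.3-fold lower than RW over the group (4.74 to 144). Csf1r in the same cells was at 972, 629 and 681 CPM in RW, 734, 598 and 782 in aJ1aJ2, and 1237, 953 and 763 in aN1aN2, where 7 of 9, 3 of 3 and 8 of 10 M cells held a Csf1r UMI. Those levels overlapped. Ccr2 varied between pools of each group: 157, 530 and 190 CPM in RW, 402, 758 and 362 in aJ1aJ2, and 218, 953 and 79.5 in aN1aN2.

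With 22 M cells, the receptor-blocked group fell under the minimum of 20 cells a sample and was left out of the test fitted to M. A fit with at least 3 M cells a sample, added after the data were seen, took all 9 samples. Cx3cr1 was lower there than in RW (edgeR log2 -4.42, SE 0.82, adjusted p = 0.0121, where 2.99% of 2305 genes were called). The call was lost without aN1aN2 1 (0.0937) or aN1aN2 3 (0.069). Without RW 3, whose M cells lacked most resident and monocyte markers, it was -4.48 (edgeR adjusted p = 0.0170), and Csf1r differed by -0.07 and Ccr2 by -0.99 (adjusted p = 0.960 and 0.474). Against aJ1aJ2 it was -4.22 (adjusted p = 0.0236, where 0.694% were called), lost without aJ1aJ2 4 (0.077), aN1aN2 1 (0.18), aN1aN2 2 (0.0941) or aN1aN2 3 (0.112). Csf1r differed from RW by 0.11 (edgeR adjusted p = 0.915) and Ccr2 by -0.64 (edgeR adjusted p = 0.653). Against aJ1aJ2, Ccr2 differed by -1.39 (SE 0.61, edgeR adjusted p = 0.305), a difference that was called without the filter on low counts (edgeR adjusted p = 0.0445). With each M cell thinned to 1000 UMIs, Cx3cr1 was held by 25.2% of RW, 24.5% of aJ1aJ2 and 1.22% of aN1aN2 cells (93, 99 and 19 cells deep enough), and Csf1r by 48.9%, 44.7% and 69.1%; unthinned, Cx3cr1 was held by 23.4%, 29.8% and 9.09% and Csf1r by 47.3%, 50.6% and 81.8%. Ccr2 was held by 11.03% of RW, 19.1% of aJ1aJ2 and 27.5% of aN1aN2 cells thinned and by 9.57%, 18.5% and 40.9% unthinned, the other way from its lower fitted level in aN1aN2, so no order of the groups is read from these shares. Markers moved too: in aN1aN2 the 6 resident macrophage markers summed to 1972 to 5401 CPM of M, above the 28.1 to 1616 of RW and overlapping the 1371 to 2119 of aJ1aJ2. The 8 macrophage markers summed to 10736 to 17931 there, overlapping RW (10720 to 17418) and aJ1aJ2 (9096 to 14592). The 6 monocyte markers summed to 620 to 2383 CPM in aN1aN2, with Ly6c2 and Chil3 at 0, to 7.02 to 1690 in RW and to 1412 to 1936 in aJ1aJ2. Their part in the result was not tested.

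Ligand blockade left no call among the receptors of M. For aJ1aJ2 against RW, edgeR gave log2 differences of 0.75 for Ccr2 (SE 0.44), -0.16 for Csf1r (SE 0.24) and -0.18 for Cx3cr1 (SE 0.42), each with an adjusted p of 1, and called 0 of 2097 genes (0.0%, with 77 at a raw p under 0.05).

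**Figure D3:**
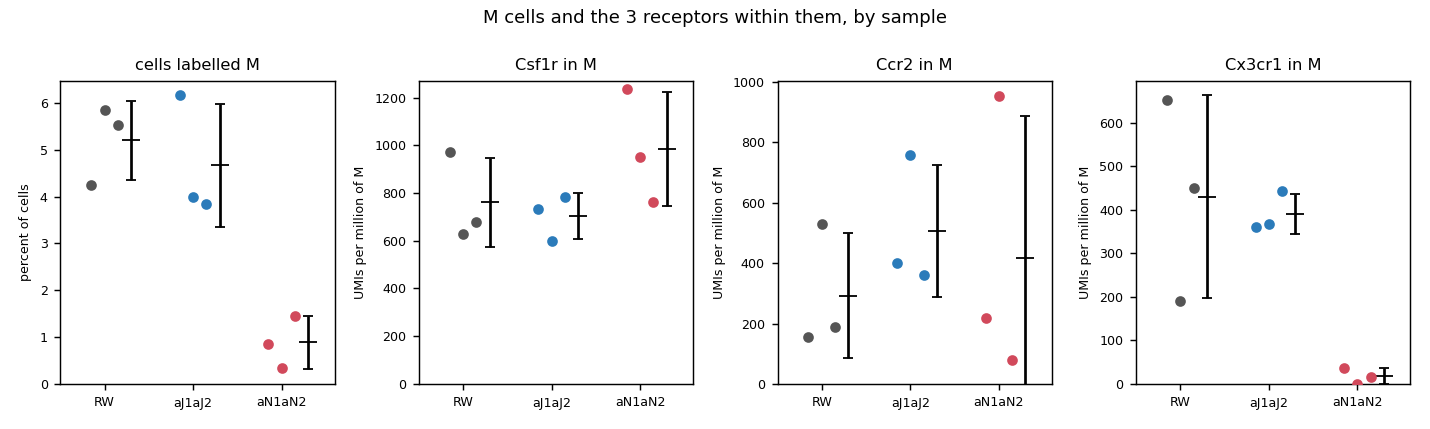
Level of Csf1r, Ccr2 and Cx3cr1 (CPM of the UMIs of M) in the M cells of each of the 9 samples; bars are the mean and SD of 3 samples, drawn down to 0 at most, and the aN1aN2 points rest on 9, 3 and 10 cells. Cx3cr1 in aN1aN2 (36.4, 0 and 15.9 CPM) lies below every other sample, while Csf1r and Ccr2 overlap between groups.

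Cx3cr1 UMIs in Th1 were also fewest after receptor blockade. There were 29, 7 and 42 in RW 1, 2 and 3, 22, 18 and 1 in aJ1aJ2 1, 3 and 4, and 0, 0 and 1 in aN1aN2. The receptor-blocked samples reached at most 1 UMI, a count that aJ1aJ2 4 shared. The edgeR log2 difference was -4.60 against RW (SE 1.15, adjusted p = 0.00586, where 34.4% of Th1 genes were called). Csf1r in Th1 gave 18, 6 and 29 UMIs, 19, 8 and 4, and 0, 0 and 1 in the same order. The filter on low counts left Csf1r out of the Th1 fit. For aN1aN2 against RW, DESeq2 gave an adjusted p of 0.0170, and edgeR without that filter gave 6.5e-05. Macrophage markers in Th1 summed to 48.0 to 107 CPM in RW, 22.2 to 236 in aJ1aJ2 and 11.7 to 84.8 in aN1aN2. As given above, most Th1 cells that held these receptors also held C1q; the part of such cells in this result was not tested.

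Cx3cl1 in EC1, its largest source, was lower after receptor blockade. It stood at 165, 152 and 63.5 CPM in RW 1, 2 and 3, at 68.6, 55.9 and 74.2 in aJ1aJ2 1, 3 and 4, and at 57.1, 34.7 and 41.1 in aN1aN2 1, 2 and 3. All 3 receptor-blocked samples lay below all RW samples, with RW 3 close to them, and the range of aJ1aJ2 took in both RW 3 and the edge of aN1aN2. The fall against RW passed edgeR's test (log2 -1.50, SE 0.34, adjusted p = 0.00308, where 17.8% of EC1 genes were called) and all 13 alternatives, with adjusted p up to 0.0288. For aJ1aJ2 against RW the difference was -0.94 (SE 0.26, edgeR adjusted p = 0.0718, where 1.43% were called). In the second title range alone it was -1.30 (edgeR adjusted p = 1.36e-05), and without RW 3 the adjusted p was 6e-05, whereas the first range holds RW 3 and aJ1aJ2 1 alone, at 63.5 and 68.6 CPM. The 2 blockades differed by -0.55 (SE 0.37, edgeR adjusted p = 0.38). Among 12 tested genes that answer to tissue digestion, 5 were lower in EC1 of aJ1aJ2 (Hspa1a, Hspa1b, Nr4a1, Fos and Dnajb1), and in aN1aN2 3 were lower and 2 higher. All 14 genes of that list summed to 1084 to 1429 CPM of EC1 in RW, 769 to 1087 in aJ1aJ2 and 1247 to 1378 in aN1aN2, and their part in the result was not tested.

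In EC4, Cx3cl1 spread more widely within groups: 165, 198 and 85.8 CPM in RW, 329, 52.7 and 97.5 in aJ1aJ2, and 99.3, 65.7 and 16.6 in aN1aN2, each from 2 to 23 UMIs. Groups overlapped, and the difference of aN1aN2 from RW (edgeR log2 -1.20, SE 0.48, adjusted p = 0.0815, where 21.1% of EC4 genes were called) was past the threshold in 6 of 13 alternatives, such as without RW 3 (0.0319) or aN1aN2 1 (0.0375). Cx3cl1 in Th1 lay between 18.5 and 30.2 CPM in all 9 samples, and its edgeR difference from RW was -0.15 in aN1aN2 (SE 0.21, adjusted p = 0.629). In EC3 it was 0.25 (SE 0.41, edgeR adjusted p = 0.791, where 5.91% were called). Whether the response of EC1 differs from that of Th1 or EC3 was not tested.

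Il34 rose in Th1 after receptor blockade. It was at 18.7, 14.0 and 20.8 CPM in RW 1, 2 and 3, at 23.5, 20.2 and 21.0 in aJ1aJ2 1, 3 and 4, and at 38.3, 30.2 and 40.1 in aN1aN2 1, 2 and 3. Every receptor-blocked sample was above all others. The edgeR log2 difference from RW was 0.94 (SE 0.19, adjusted p = 0.00132), past the threshold in all 13 alternatives. Against aJ1aJ2 it was 0.75 (SE 0.19, edgeR adjusted p = 0.0117, where 22.3% were called), lost without aJ1aJ2 3 (0.054) or aN1aN2 1 (0.065). With each Th1 cell thinned to 1000 UMIs, 1.89% of RW, 1.92% of aJ1aJ2 and 4.19% of aN1aN2 cells held an Il34 UMI. Unthinned shares were 33.6%, 28.3% and 29.6%, at median depths that fell from 17624 in RW to 6499.5 UMIs in aN1aN2. In F the UMIs went the other way: Il34 had 8, 6 and 14 in RW, 9, 11 and 9 in aJ1aJ2 and 0 in each aN1aN2 sample, at least 4.44-fold lower than RW, taking 3 counts for the whole group as the limit. The filter on low counts left Il34 out of the F fit. Without that filter the edgeR adjusted p was 0.000246, and DESeq2 gave 0.00851. Il34 in SM, its highest level, was at 160 and 168 CPM in aJ1aJ2 3 and 4 and at 186, 141 and 152 in aN1aN2, which overlap (edgeR log2 -0.20, SE 0.41, adjusted p = 0.893, where 4.05% were called), and at 97.6 in RW 3, the only RW sample with enough cells.

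Csf1 in F split the receptor-blocked samples. It was at 155, 173 and 183 CPM in RW, 175, 152 and 141 in aJ1aJ2, and 164, 36.2 and 37.4 in aN1aN2 1, 2 and 3. Thus aN1aN2 1 lay among the control samples and the other two far below. The edgeR log2 difference from RW was -0.97 (SE 0.36, adjusted p = 0.0679, where 19.8% of F genes were called), and without aN1aN2 1 it was -2.19 (adjusted p = 0.000289). Without the filter on low counts it was -1.09 (edgeR adjusted p = 0.00364). Over all 13 alternatives it ran from -2.19 to -0.58, with adjusted p up to 0.343. Genes of the digestion response in F summed to 1281 to 1778 CPM in RW, 1633 to 2219 in aJ1aJ2 and 1934 to 2181 in aN1aN2, with 4 of 10 tested higher in aN1aN2 than RW (Fos by 3.50 on the log2 scale, and Nr4a1, Junb and Ier2). The erythroid markers in F summed to 95.9 to 240 CPM in RW, 130 to 767 in aJ1aJ2 and 716 to 34500 in aN1aN2. The part of either list in Csf1 or Il34 was not tested. In Th1 Csf1 was at 6.44, 5.34 and 12.2 CPM in RW, 7.17, 12.2 and 19.2 in aJ1aJ2, and 6.02, 4.93 and 1.15 in aN1aN2. There it was lower after receptor than after ligand blockade (edgeR log2 -1.45, SE 0.47, adjusted p = 0.0391); leaving out any aN1aN2 sample, aJ1aJ2 3 or aJ1aJ2 4 ended the call (adjusted p 0.0683 to 0.121). Against RW it was -0.92 (SE 0.48, edgeR adjusted p = 0.154). Csf1 in EC1 and EC3 passed no test.

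**Figure D4:**
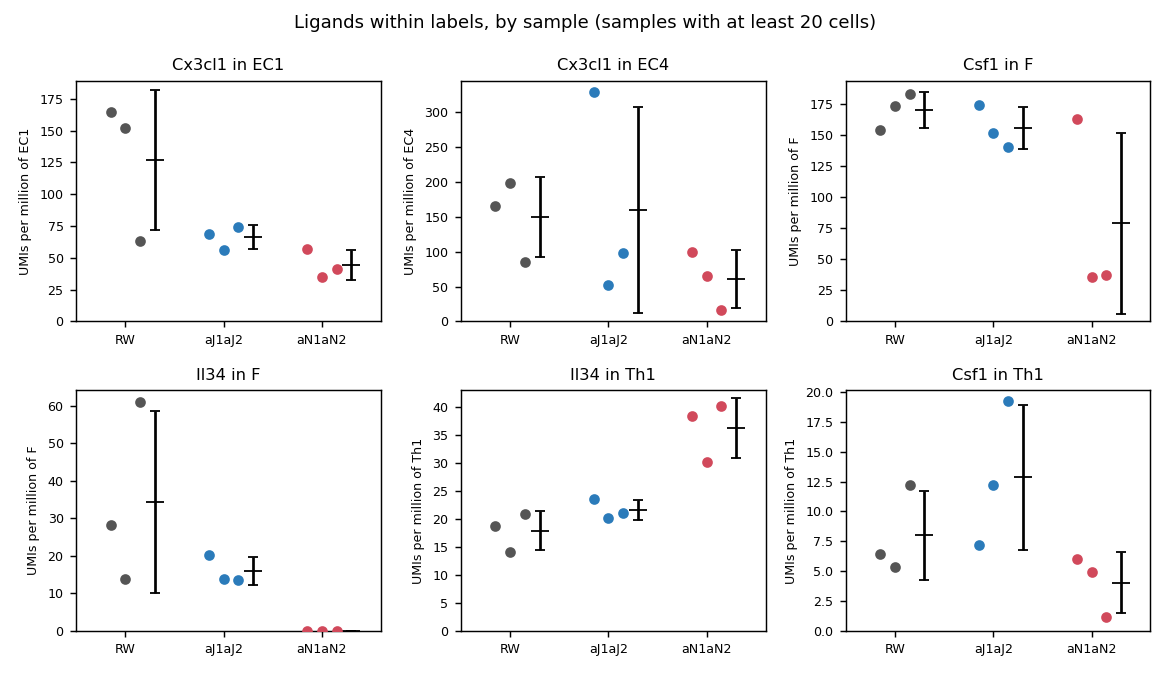
Level (CPM of the label's UMIs) of ligand genes within their source labels in each sample, by antibody group; points are samples and bars the mean and SD, drawn down to 0 at most. Cx3cl1 in EC1 is lower in all 3 aN1aN2 samples than in any RW sample, Il34 in Th1 is higher, and Csf1 in F splits aN1aN2 into 1 sample at 164 CPM and the other two at 36.2 and 37.4 CPM.

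In all, 10 tests of the 8 genes within 9 labels could be fitted for aN1aN2 against RW, and 3 passed (Cx3cl1 in EC1, Cx3cr1 and Il34 in Th1, the last higher). For aN1aN2 against aJ1aJ2, 3 of 11 in 10 labels passed (Cx3cr1, Il34 and Csf1, each in Th1). For aJ1aJ2 against RW, edgeR called 0 of 14 in 12 labels, with 2 at a raw p under 0.05, Cx3cl1 in EC1 and Ccr2 in T1 (log2 -1.43, adjusted p = 0.999). Both comparisons against RW share the RW samples. In whole samples edgeR called 2 of 7 genes in each comparison with aN1aN2 and 0 of 7 for aJ1aJ2 against RW, with 1 at a raw p under 0.05 (Cx3cl1). Ccl2 and Ccl7 passed the filter on low counts in no label.

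These counts stand beside the share of all tested genes that edgeR called. For aJ1aJ2 against RW that share was 0.0278% in whole samples. Within labels it was 1.43% in EC1, 1.91% in EC2, 0.0618% in EC3, 0.903% in EC4, 0.579% in F, 0.612% in Th1, 0.358% in Eryth2 and 0.0% in M, S, T1, Th3 and Eryth1. For aN1aN2 against RW it was 17.8% in EC1, 15.5% in EC2, 5.91% in EC3, 21.1% in EC4, 19.8% in F, 34.4% in Th1, 5.03% in Th3, 7.69% in Eryth1 and 8.6% in Eryth2. For aN1aN2 against aJ1aJ2 it was 13.5% in EC1, 10.5% in EC2, 1.27% in EC3, 17.2% in EC4, 16.0% in F, 4.05% in SM, 22.3% in Th1, 1.44% in Th3, 5.59% in Eryth1 and 9.32% in Eryth2. In Th1, where 2 of the 3 calls against RW lay, the share called over all genes was the highest of these.

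What M cells with one receptor also carried was asked by summing, within a sample, the cells with a UMI of the gene and those without. Deep cells are more often positive: the median was 9100 UMIs in Ccr2-positive and 952 in Ccr2-negative M cells, 5790 and 870 for Cx3cr1. Csf1r was found in 79.3% of the 58 Ccr2-positive and 87.5% of the 96 Cx3cr1-positive M cells, and 26 cells held both Ccr2 and Cx3cr1. Among the 138 M cells with at least 2000 UMIs, 87.7% held Csf1r, 55.1% Cx3cr1 and 35.5% Ccr2. The 164 M cells with none of the 3 receptors had a median of 712 UMIs, so absence there was not detectable at this depth.

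Ccr2-positive M cells were low in genes of resident macrophages. The fit could use 2 samples, RW 2 and aJ1aJ2 3, with 13 and 16 positive cells, and called 177 of 2507 genes (7.06%), 53 of them higher. All 6 resident macrophage markers were lower: Lyve1 (a hyaluronan receptor) had 0 UMIs against 258 CPM, at least 31.5-fold lower, and Folr2 (a folate receptor) 2.73 against 652 CPM, with Timd4, Cd163, Mrc1 and Gas6. Of 7 tested genes of the list of other chemokines, 5 were lower: Ccl8 had 0 UMIs against 643 CPM (at least 78.5-fold lower), Ccl24 at least 27.2-fold and Ccl12 at least 16.7-fold lower, with Pf4 and Cxcl16. Retnla, a product of alternatively activated macrophages, was at 8.19 against 2564 CPM and Vcam1 at 2.73 against 1088. The complement genes C1qa, C1qb and C1qc were lower by 2.03 to 2.46 on the log2 scale, and the transcription factor gene Maf (-3.44) was lower too. Of 4 monocyte markers tested, Plac8 was higher (log2 2.72, 701 against 98.6 CPM) and F13a1 lower (-3.87, 76.4 against 1050 CPM). The thyrocyte transcript Tg was lower as well (-2.19, 308 against 1301 CPM), and its part in the result was not tested. Also higher were the dendritic cell gene Cd209a (2.90), fibronectin (Fn1, 183 CPM against 0 UMIs, at least 19.2-fold), Emb (270 against 9.54 CPM), Klrd1, Ms4a4c, the chemokine Ccl17, which is outside that list (483 against 60.4 CPM), and the division genes Top2a (197 against 9.54 CPM), Mki67 and Pclaf. Of the other receptors, Csf1r was lower in Ccr2-positive cells (349 against 922 CPM, edgeR log2 -1.55, SE 0.21, adjusted p = 0.00538), and Cx3cr1 differed by 0.08 (SE 0.35, edgeR adjusted p = 0.939). With the fit limited to cells of at least 2000 UMIs, 6 of 6 resident markers remained lower, and DESeq2 called 4.

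Cx3cr1-positive M cells were higher in Tgfbr1, Tmem119 and Cd14 and lower in Retnla. Over the 6 RW and aJ1aJ2 samples, 30 of 1703 genes (1.76%) were called and 26 of these were higher. In cells of at least 2000 UMIs, which left 2 samples, 37 were called and 17 of these were higher, and with at least 5 such cells in each arm, 30 were called and 14 were higher, so the balance towards higher genes was not seen at that depth. Tgfbr1, a TGF-beta receptor, was at 369 against 59.6 CPM (edgeR log2 2.65, SE 0.27, adjusted p = 0.0012), Tmem119, known from microglia, at 167 against 36.9, and Cd14, the endotoxin co-receptor, at 381 against 107 CPM. Apobec1, Gpr65, Cdk6, Lilra5, Mef2a, Neurl3 and Fyb were higher in 6 of 6 samples as well. Lower were Retnla (0 UMIs against 1788 CPM, at least 350-fold), Cd209d (0 UMIs against 302 CPM, at least 59.3-fold) and S100a10 (log2 -1.08). Csf1r was higher in 6 of 6 samples (937 CPM in positive cells) without passing the test (log2 0.87, SE 0.26, edgeR adjusted p = 0.139), and 0 of 5 tested resident macrophage markers were called. Retnla was thus low in M cells positive for either receptor, and whether the same negative cells carry it was not tested. Without aJ1aJ2 3 or with RW samples alone, 5 genes were called. Without RW 2, 15 genes were called, and without RW 3, 19.

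F cells with a Csf1 UMI were set against F cells without one in 7 samples, a comparison added after the data were seen, which called 76 of 4408 genes (1.72%), 43 of them higher. In these samples the positive cells had median depths of 5365 to 11015 UMIs and the negative cells 2142 to 5793, with the positive cells deeper in every sample. In cells of at least 2000 UMIs the count was 33, and it was 34 without RW 2, 32 without aJ1aJ2 1 and 23 without aJ1aJ2 3. Csf1-positive cells were higher in Fn1 (fibronectin, 1079 against 410 CPM), Ackr3 (the CXCL12 scavenger, 477 against 237 CPM), complement C3 (2750 against 1507 CPM), Ly6a (the Sca-1 antigen, 2158 against 1098 CPM) and Opcml (58.9 against 15.4 CPM), each in 7 of 7 samples. Lower in 7 of 7 were Spp1 (osteopontin, 2.52 against 95.3 CPM), Mylk (myosin light chain kinase, 17.6 against 53.9 CPM), Mdk (midkine, 66.9 against 135 CPM) and Chodl (0 UMIs against 26.0 CPM, at least 17.2-fold lower). Of the 6 fibroblast markers edgeR called 0, and the list's median log2 difference was 0.19. Among markers of other cell types, Plac8 was higher (0.91, 7 of 7 samples), the parathyroid hormone gene Pth higher (1.22, 6 of 7 samples, 186 against 72.2 CPM) and the globin gene Hba-a1 lower (-2.20, 6 of 7 samples, 41.8 against 325 CPM), and their part in the result was not tested.

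**Figure D5:**
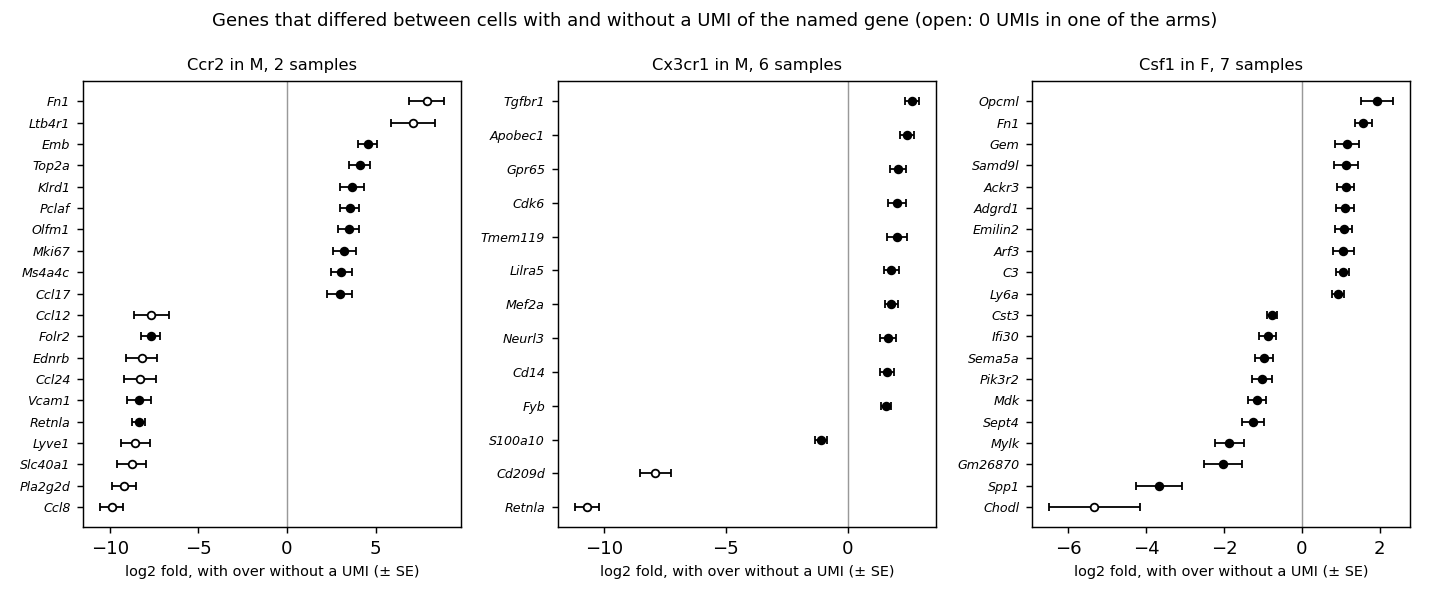
Log2 fold change (x axis, with SE) of the named genes between cells with and without a UMI of Ccr2 or Cx3cr1 in M and of Csf1 in F; open points are genes with 0 UMIs in one of the arms, whose fitted fold is no bound. Retnla is among the lowest in both M panels, Fn1 is among the highest for Ccr2 in M and Csf1 in F.

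Lists of pathway genes were read in the same fits. For aN1aN2 against RW, the share called over all genes was 16.6% in whole samples. Of 16 partners and signalling genes of CSF1R, Cebpb (a transcription factor of the myeloid line and of acute responses) rose against RW after receptor blockade in 6 labels: EC1 by 1.78, EC2 by 2.18, EC4 by 2.30, F by 2.10, Th1 by 1.15 and Th3 by 2.75 on the log2 scale. In EC1 of aJ1aJ2 it was lower (-1.31, SE 0.20, edgeR adjusted p = 0.00129). Tyrobp, the gene of the myeloid adaptor DAP12, was lower in EC1 of both blockades (log2 -1.99 in aJ1aJ2, edgeR adjusted p = 0.0132, and edgeR adjusted p = 0.000382 in aN1aN2, where the fitted fold depends on the prior count). The macrophage markers in EC1 summed to 120 to 241 CPM in RW, 65.4 to 131 in aJ1aJ2 and 57.1 to 60.1 in aN1aN2, and their part in this was not tested. Receptor blockade also lowered Maf in Th1 (-0.62) and raised Inpp5d, the gene of the phosphatase SHIP1, in EC1 (1.18), Csf2rb in EC3 (2.53) and the adaptor gene Grb2 in Th1 (0.48). In whole samples, 1 of 13 tested was higher in aN1aN2 than RW, and Spi1, the gene of PU.1 (log2 -1.69), and Csf2ra (-0.97) were lower; the list's median was -0.32 beside -0.01 over all genes. Of the 21 other chemokines, 19 were tested in whole samples, with 1 higher and 5 lower and a median of -0.60. Cxcl12, which retains CXCR4-bearing cells, was lower against RW in EC2 (-1.87), EC4 (-1.77), F (-1.29) and Th1 (-1.02), and higher in EC1 of aJ1aJ2 (0.74, edgeR adjusted p = 0.0137). Cxcl13, the B cell chemokine, rose in F by 4.40 (SE 0.75, edgeR adjusted p = 0.000383). Of the 13 other chemokine receptors, 8 were tested in whole samples and 0 called by edgeR in aN1aN2 against RW; Ackr3, a scavenger of CXCL12, rose in EC1 (0.65), EC2 (1.86) and EC4 (1.16).

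A list of 5 genes held sheddases of CX3CL1, an inhibitor of them and integrin subunits. Timp3, an inhibitor of the sheddases, rose against RW after receptor blockade in EC1 (0.43), EC2 (2.18), EC3 (1.22), F (0.66), Th1 (1.67) and Eryth1 (3.38), and after ligand blockade in EC2 (1.67, edgeR adjusted p = 0.00976). Receptor blockade also raised Itgb3, a subunit of an integrin that binds fractalkine, in EC1 (1.31) and EC3 (2.05). Itgav, another integrin subunit, rose in Th1 (0.73). The sheddase gene Adam10 fell in EC4 (-0.80). In whole samples all 5 genes of this list were tested against RW: Timp3 (1.12) and Itgav (0.64) rose, and the sheddase gene Adam17 fell (-0.58). In EC1, where Cx3cl1 was lower, 2 of 5 genes of this list rose and 0 fell, with a median of -0.28, beside 17.8% of all EC1 genes called. Of the NF-kB and cytokine genes, Nfkbia, the feedback inhibitor of NF-kB, rose in EC1 (1.39), EC2 (1.46), EC4 (2.42), F (1.71) and Th1 (0.62), and Zfp36, which destabilises cytokine mRNAs, in EC2 (2.07), F (1.54) and Th1 (1.63). In Th1 the interleukin-1 receptor gene Il1r1 rose (0.65) and Relb fell (-1.23). Of the genes of this list that were tested, edgeR called 1 of 7 in EC1, 2 of 3 in EC2, 0 of 6 in EC3, 1 of 5 in EC4, 2 of 5 in F, 4 of 7 in Th1 and 0 of 1 in Th3, beside 17.8%, 15.5%, 5.91%, 21.1%, 19.8%, 34.4% and 5.03% of all genes in these labels. In whole samples it called 3 of 8, beside 16.6%. Genes that answer to tissue digestion moved in the same labels. Beside the 2 higher and 3 lower in EC1 and the 4 higher in F given above, Ier3 rose in EC2 (2.58), 1 of 4 tested. In EC4, Ier3 (2.32) and Jund (1.16) rose and Nr4a1 fell (-4.12), 3 of 6 tested. In Th1, Hspa1a rose (0.58) and Jun fell (-0.91), 2 of 10 tested. Their part in the rises of Cebpb, Nfkbia and Zfp36 was not tested. For aJ1aJ2 against RW, 0 of the NF-kB and cytokine genes were called in EC1, F, M or Th1 by edgeR.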

How the data were processed

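Per the labels' protocols, the 10x Genomics 3' v2 chemistry and a HiSeq4000 were used. The authors deposited raw UMI counts per gene and cell for 9 samples, with a sample and a label per cell; the submitters' processing notes name Cell Ranger and GRCm38, and how labels were made is not given in the sources used here. Every value was a whole number, cells had 500 to 131347 UMIs, and no 2 libraries shared more than 2 cell barcodes. An unquoted comma in 2619 annotation lines was corrected on reading. Symbols matched 52403 of 52636 gene identifiers.

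Cells are not replicates, so counts were summed per sample and label. A label was tested where each compared group had at least 2 samples with at least 20 cells. The quasi-likelihood test of edgeR 4.0.16 (R 4.3.3; filterByExpr, TMM, 3 group means) gave log2 fold changes, with SE taken as the log2 fold over the root of F, and Benjamini-Hochberg adjusted p over all genes of the label; under 0.05 is called. Cells with and without a UMI of a gene were compared with the sample as block, where each arm had at least 10 cells. CPM is scaled to the label's or sample's UMIs; these 3' counts need no length scaling. Counting intervals are exact at 95%, and they and the floor of 3 counts cover counting error only. Shares of cells were compared with exact permutation tests. DESeq2 1.42.0, other normalization, no filter, deeper cells and leaving out each sample were alternatives. The edgeR fit was tested on simulated data modelled on EC1, F and the Cx3cr1 split of M. The other fits were not simulated.

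Samples were grouped by title and treatment label; RW 3 and aJ1aJ2 1 carry no number in their titles. Pools are the replicates, and p-values measure the spread between pools. RW and aN1aN2 samples share replicate numbers without a label that pairs them. All 8 genes are named; beside them, the 3 most alike across labels, up to 5 called genes a list and direction, and the 10 called genes with the largest fold in each direction that moved alike in every sample. The members and lists were chosen with earlier results of these data known. Fits of Csf1-positive F cells, of arms of at least 5 cells and of M with at least 3 cells a sample were added after the data were seen. Csf1r is given without coordinates.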

Additional observations from a re-analysis of the deposited data

Results flagged for a closer look

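Receptor and ligand blockade differed directly in 5 comparisons of these genes, each tested as aN1aN2 against aJ1aJ2 in the same edgeR fit. These were 3 of 11 tests within labels, all in Th1, where 22.3% of all genes were called, and 2 of 7 in whole samples, where 9.94% were. Cx3cr1 was lower after receptor blockade in whole samples (adjusted p = 0.000865, log2 -5.26) and in Th1 (adjusted p = 0.0216, log2 -4.26), with 3 and 1 UMIs in the receptor-blocked group. The whole-sample call was past the threshold in all 11 alternatives, while that in Th1 was lost without aN1aN2 1 (0.113) or aN1aN2 2 (0.102). Il34 in Th1 was higher after receptor blockade (edgeR adjusted p = 0.0117, log2 0.75), a call lost without aJ1aJ2 3 (0.054) or aN1aN2 1 (0.065). Csf1 was lower in Th1 (edgeR adjusted p = 0.0391, log2 -1.45) and in whole samples (adjusted p = 0.0406, log2 -0.98), and both calls were lost without single samples. The aN1aN2 samples are the third title range, so the blockade and that range cannot be told apart.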

How the results depend on the processing

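Where a setting moved a count, the cause was not tested. For aJ1aJ2 against RW within labels, the count of 0 calls became 3 without the filter, 1 with title range as a term and 2 in the second range alone, and 0 to 1 with a sample left out; in whole samples it was 0 to 0. For aN1aN2 against RW within labels, 3 calls became 5 by DESeq2 and 8 without the filter, and 3 to 6 with a sample left out. In whole samples, 2 calls became 1 with DESeq2 size factors, with the 2 groups alone and in cells of at least 1000 UMIs, 3 without the filter, 2 by DESeq2, and 1 to 3 with a sample left out. For aN1aN2 against aJ1aJ2, 3 calls within labels became 6 without the filter (1 to 3 with a sample left out), and 2 in whole samples became 4 with the 2 groups alone (1 to 2).

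The share of M cells in aJ1aJ2 against RW turned to 0.228 percentage points in cells of at least 1000 UMIs (exact permutation p = 0.9) and ranged from -1.29 to -0.122 with a sample left out. It ranged from -4.80 to -3.998 for aN1aN2 against RW and from -4.20 to -3.03 against aJ1aJ2.

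For Ccr2 in M, 177 calls became 65 by DESeq2, 115 without the filter, 338 in cells of at least 2000 UMIs, 420 with at least 5 cells an arm and 441 (183 higher) with both limits. RW alone, or leaving out either sample, left 1 sample and no test. For Cx3cr1 in M, 30 calls (26 higher) became 124 without the filter (63 higher), 37 in cells of at least 2000 UMIs (17 higher), 30 with both limits (14 higher) and 5 with RW alone, and 5 to 38 with a sample left out (15 without RW 2, 19 without RW 3, 5 without aJ1aJ2 3). For Csf1 in F, 76 became 45 by DESeq2, 131 without the filter, 33 in cells of at least 2000 UMIs, 10 with RW alone, 38 with at least 5 cells an arm and 32 with both limits. With a sample left out it was 23 to 99, with 34 without RW 2, 32 without aJ1aJ2 1 and 23 without aJ1aJ2 3. Ccl2-positive F cells were not run, since no sample had 10 of them.

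RW and aN1aN2 share the numbers 1 and 2. Deviations of same-numbered samples correlated at r = 0.0397 and -0.193 over 14382 genes, so the samples share only a number. With a replicate block, the calls of aN1aN2 against RW were 3 within labels and 1 in whole samples. Of those within labels, Cx3cl1 in EC4 was gained (edgeR adjusted p = 0.0281), and the block gave no value for Cx3cr1 in Th1.

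Depth limits Ccl2 and Ccl7, which have 96 and 102 UMIs in all. The 9, 3 and 10 M cells of aN1aN2 limit every receptor value there.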

Other observations

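Ccr2 in T1 was 421, 161 and 125 CPM in RW and 60.1 and 105 CPM in aJ1aJ2 3 and 4. In EC1, Cx3cr1 had 24 UMIs in RW (6, 0 and 18 in RW 1, 2 and 3) and 0 in both blockades, so RW 2 overlapped them. Over pooled groups this was at least 5.77-fold lower in aJ1aJ2 and at least 1.76-fold lower in aN1aN2, where fewer UMIs were read. The sums of macrophage markers in EC1, given above, were lower in aN1aN2 than in RW and overlapped between RW and aJ1aJ2, and their part was not tested.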
